A study of Homo sapiens with 6 samples.

Results

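Small nucleolar RNA host genes, as grouped here, are mostly long non-coding genes that carry small nucleolar RNAs (snoRNAs) or small Cajal body-specific RNAs (scaRNAs) in their introns. They were taken here as every gene whose GENCODE symbol starts with SNHG, together with GAS5, ZFAS1, DANCR and EPB41L4A-AS1. The rule found 29 gene identifiers under 28 symbols, because SNHG28 stood under 2 overlapping identifiers. Of these, 27 were above 0.1 FPKM (this unit counts the fragments of a gene scaled by its transcript length and by the mapped fragments of the library) in at least 1 library, among 23671 genes above that level and 60658 identifiers in all. SNHG18 stayed at or below 0.0694 FPKM and SNHG27 was listed at 0 in every library, and neither entered the counts.

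The libraries came from C4-2B MDVR and CWR22Rv1, human castration-resistant prostate cancer cell lines that resist the androgen receptor antagonist enzalutamide. Each line was treated for 48 h with DMSO as vehicle, with 10 μM apoptozole (APO) or with 10 μM VER155008 (VER), which both inhibit the chaperone HSP70. Routine medium of the C4-2B MDVR line held 20 μM enzalutamide, and the sources used here do not say whether it stayed in the medium for those 48 h. The labels name the first line as LNCaP-C4-2B in the source field and as C4-2B MDVR in the titles, and the titles were followed. There was 1 library for each line and treatment, so differences below have no replicate check, no error and no test, and a gene is called higher or lower, or said to rise or fall, only past 1.2-fold on the log2(FPKM + 0.1) scale (a log2 difference of 0.263).

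As background, box C/D snoRNAs guide ribose methylation and box H/ACA snoRNAs guide pseudouridylation of ribosomal RNA, while scaRNAs guide the same changes on spliceosomal RNAs. The guides are freed from the spliced-out introns, and in most non-coding hosts the remaining exons have no long open reading frame. Many spliced host RNAs start with a cytosine followed by pyrimidines, as ribosomal protein mRNAs do, bind ribosomes and are removed by nonsense-mediated decay, so that their level depends on translation as well as on transcription.

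The starts of the host genes are shown first because a pyrimidine start is the sequence feature for which these genes are best known. RefSeq (GRCh38.p14) gave a start for 22 of the members above the filter, by symbol, and none was at hand for SNHG6, SNHG9, SNHG15 and SNHG25. Each line holds 20 bases before the annotated start and 20 bases from it, and capitals mark the pyrimidine run that begins at the start base. The first 5 begin with C and at least 4 further pyrimidines, and the others show hosts named below that do not at the RefSeq start.
ZFAS1, chr20:49278622-49278661, plus strand: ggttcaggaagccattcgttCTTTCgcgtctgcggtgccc
SNHG5, chr6:85678714-85678753, minus strand: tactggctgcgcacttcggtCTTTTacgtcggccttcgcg
SNHG19, chr16:2155339-2155378, minus strand: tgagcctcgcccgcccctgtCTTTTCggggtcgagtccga
SNHG12, chr1:28581854-28581893, minus strand: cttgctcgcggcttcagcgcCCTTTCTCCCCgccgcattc
SNHG4, chr5:139274081-139274120, plus strand: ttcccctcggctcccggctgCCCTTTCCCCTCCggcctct
SNHG1, chr11:62855866-62855905, minus strand: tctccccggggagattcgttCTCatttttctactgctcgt
SNHG7, chr9:136728165-136728204, minus strand: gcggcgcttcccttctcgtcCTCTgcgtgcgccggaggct
SNHG8, chr4:118278742-118278781, plus strand: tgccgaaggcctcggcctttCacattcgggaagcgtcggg
EPB41L4A-AS1, chr5:112160506-112160545, plus strand: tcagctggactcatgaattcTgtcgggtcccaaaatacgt
GAS5, chr1:173869026-173869065, minus strand: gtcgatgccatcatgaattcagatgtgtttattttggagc
SNHG3, chr1:28505923-28505962, plus strand: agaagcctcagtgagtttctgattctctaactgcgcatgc

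The pyrimidine start was found in 5 of 22 hosts (22.7%) and in 1429 of all 35116 promoters of the table (4.07%). Only the base at the annotated start was read, and a start set a few bases away would give another run. RefSeq starts also need not be those of the genes counted here. The one of GAS5 (173869045) lay outside its GENCODE span, which ends at 173868882. The one of SNHG14 (24823608) lay before its GENCODE start at 24978583. The 5 genes did not share a direction, as the values below show for ZFAS1, which was higher, and SNHG4, which was lower. In the windows from 250 bases before to 50 bases after the start, the E-box CACGTG, which reads the same on both strands, was in 1 host (SNHG7) and in 7.26% of all promoters. The core TGATGNAA of sites bound by the stress factor ATF4, searched on both strands, was in 0 hosts and in 3.62% of all promoters.

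Depth was not given in the files. Steps among the lowest FPKM values gave depths of 1.13 to 1.62 times that of the vehicle library of C4-2B MDVR, and 17603 to 19376 genes were above 0.1 FPKM per library. All 7 prostate luminal markers fixed for the check were above 1 FPKM in every library, the basal markers KRT5 and TP63 were listed at 0, and summed neuroendocrine markers were 0.258 to 0.917 FPKM in C4-2B MDVR and 38.7 to 61.7 in CWR22Rv1. Mitochondrial-chromosome genes took 14.8% to 16.4% of all FPKM in the C4-2B MDVR libraries, and in CWR22Rv1 they took 25.7% under DMSO and VER and 10.5% under APO.

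Most hosts lay far above the filter in both lines. Of the 27, 23 were above 0.1 FPKM in every library, 25 reached a mean of 1 FPKM and 8 a mean over 100 FPKM. GAS5 was the highest of these 27 hosts in all 6 libraries. Second place went to SNHG19 or SNHG8 in C4-2B MDVR and to SNHG5 in CWR22Rv1.

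**Figure D1:**
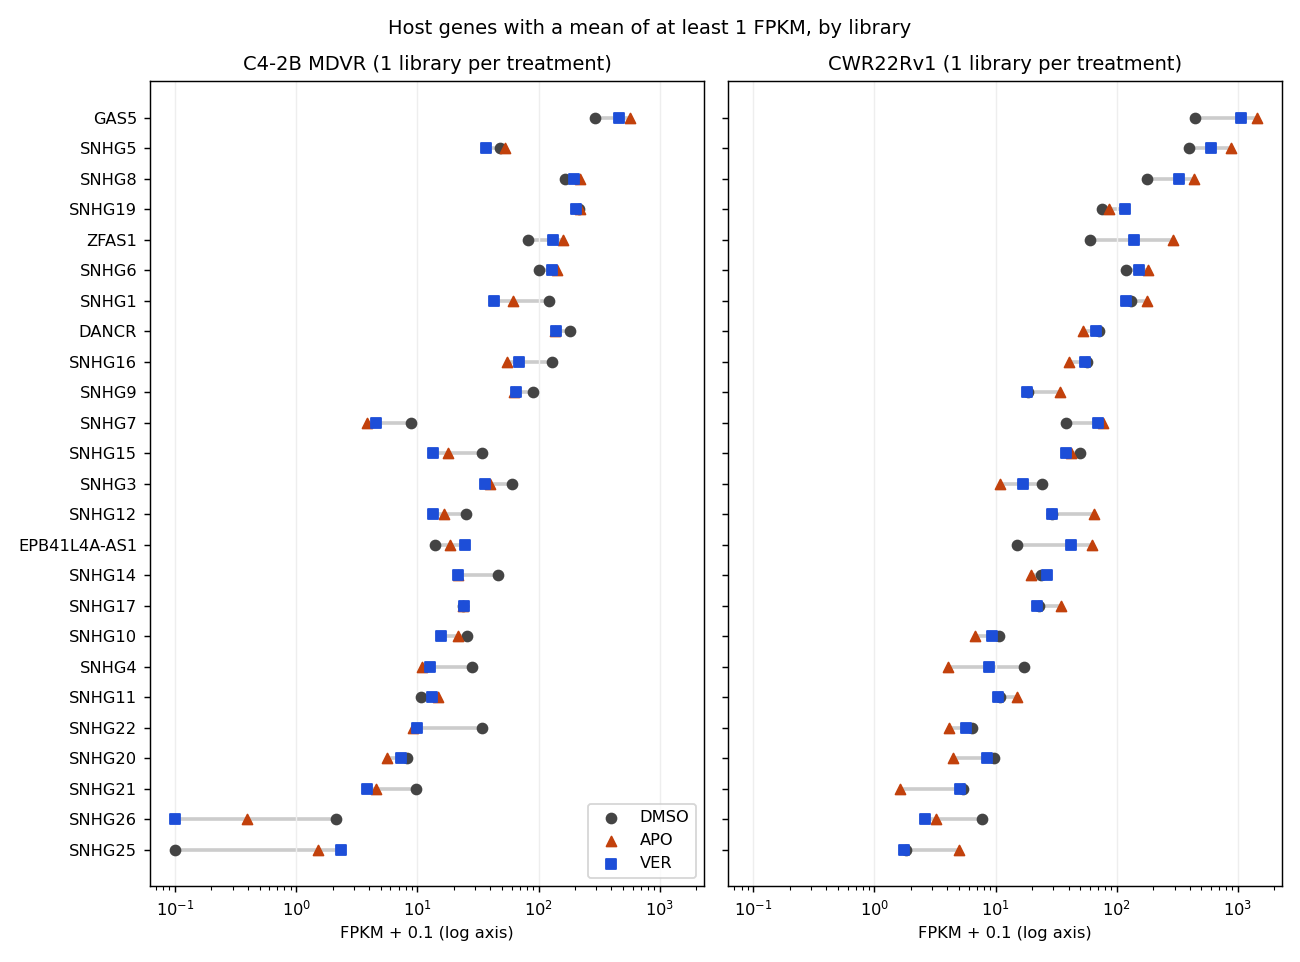
FPKM + 0.1 (log axis) of the 25 host genes whose mean reached 1 FPKM, by line and treatment. Each point is 1 library and the grey bar joins the lowest and the highest of the line. GAS5 stands on top in both lines, and the points of GAS5, ZFAS1 and SNHG8 spread further in CWR22Rv1 than in C4-2B MDVR.

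Summed over the hosts, C4-2B MDVR held 1756 FPKM under DMSO, 1889 under APO and 1678 under VER. In CWR22Rv1 the sums were 1822, 3971 and 2949 FPKM. The sum was thus close to level in the first line and higher with each inhibitor in the second. This holds for the hosts of the rule only. SNHG29 (listed as LRRC75A-AS1), outside the rule and not in these sums, stood at 667, 1137 and 1009 FPKM under DMSO, APO and VER in C4-2B MDVR. As a share of all FPKM the sum over the hosts was 0.261%, 0.253% and 0.249% in C4-2B MDVR and 0.260%, 0.614% and 0.402% in CWR22Rv1. The library with the highest share, CWR22Rv1 with APO, was also the library with the lowest mitochondrial share given above, and the part of the latter in this result was not tested. The 5 highest hosts made up 56.0% to 69.4% of the sum in C4-2B MDVR and 69.7% to 81.3% in CWR22Rv1. FPKM is a share of a library, so less RNA per cell and fewer cells with the RNA cannot be told apart.

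Under DMSO some hosts differed strongly between the lines. Of 27 members, 11 were higher in C4-2B MDVR than in CWR22Rv1 (35.5% of all genes) and 7 were lower (39.9% of all genes), with a median log2 difference of -0.03 beside 0.00 over all genes. SNHG5, host of SNORD50 family snoRNAs, stood at 47.8 FPKM in C4-2B MDVR and 397 in CWR22Rv1, and SNHG7 at 8.83 and 38.2, which are log2 differences of -3.05 and -2.10. In the other direction SNHG22, host of SCARNA17, stood at 34.1 and 6.33 FPKM, and SNHG9, which lies beside the ribosomal protein gene RPS2, at 89.3 and 18.4, with log2 differences of 2.41 and 2.28. At more than 2-fold, 7 hosts were higher (17.1% of all genes) and 4 lower (24.0% of all genes). SNHG19 (1.52), DANCR (1.36), SNHG3 (1.32), SNHG10 (1.27) and SNHG16 (1.18) completed the 7. Besides SNHG5 and SNHG7, the 4 lower hosts were SNHG26 (2.04 and 7.62 FPKM) and SNHG25. The latter was listed at 0 in C4-2B MDVR and at 1.72 FPKM in CWR22Rv1, and it enters through the added 0.1.

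**Figure D2:**
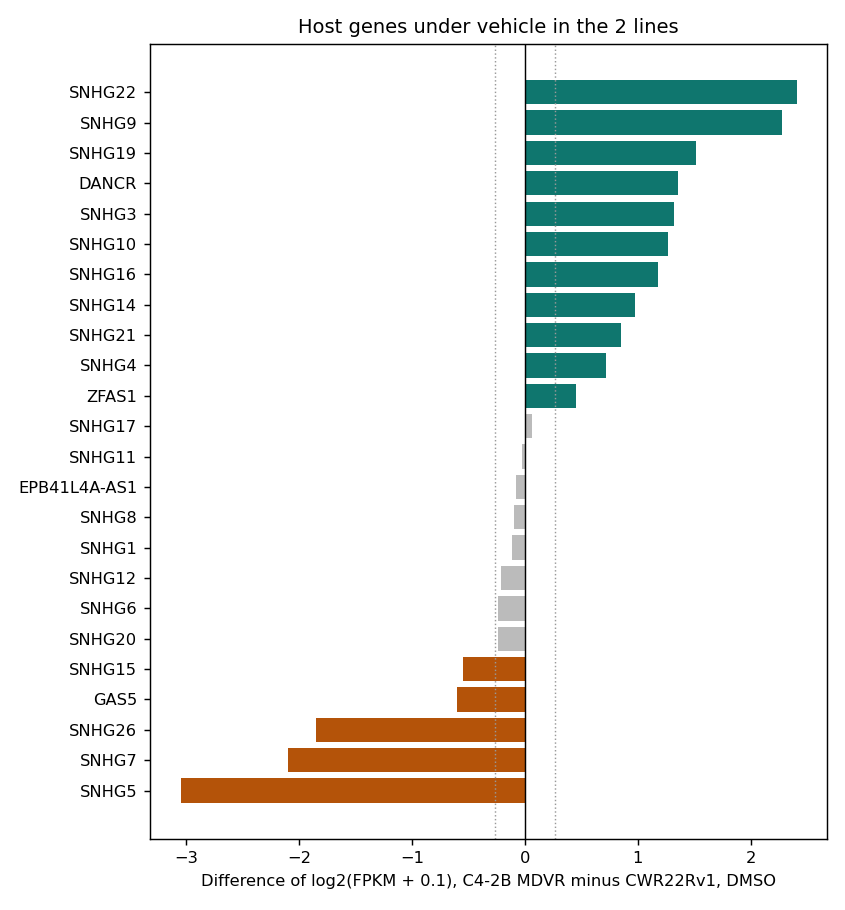
Difference of log2(FPKM + 0.1) between the lines under DMSO, C4-2B MDVR minus CWR22Rv1, for 24 host genes whose mean reached 1 FPKM and that were not listed at 0, 1 library per line. Bars past the dotted lines (1.2-fold) are green where C4-2B MDVR was higher and brown where it was lower, and the differences run from 2.41 for SNHG22 to -3.05 for SNHG5.

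Hosts that stood nearly level between the lines under DMSO included SNHG1 (-0.12), SNHG8 (-0.10), SNHG11 (-0.03), SNHG17 (0.06) and EPB41L4A-AS1 (-0.08). Each line had 1 library here, and only C4-2B MDVR was maintained in enzalutamide, so line and culture history cannot be told apart.

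The next question was how the hosts differed from vehicle after HSP70 inhibition. In C4-2B MDVR more hosts were lower than higher. With APO 8 of 27 were higher (33.6% of all genes) and 14 lower (31.2% of all genes), and the median log2 difference was -0.42. With VER 7 were higher (31.6% of all genes) and 15 lower (30.9% of all genes), with a median of -0.40. The median over all genes was 0.00 in each comparison, and APO and VER share the vehicle library within a line.

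In CWR22Rv1 more hosts were higher than lower. With APO 14 hosts were higher (33.3% of all genes) and 10 lower (36.6% of all genes), with a median of 0.43. With VER 10 were higher (30.1% of all genes) and 4 lower (30.2% of all genes), with a median of -0.04. At more than 2-fold, 2 hosts were higher (13.1% of all genes) and 7 lower (11.3%) with APO in C4-2B MDVR, and 8 were higher (12.6%) and 5 lower (15.3%) with APO in CWR22Rv1. With VER these counts were 2 higher (12.3% of all genes) and 7 lower (11.3%) in C4-2B MDVR, and 5 higher (9.89%) and 1 lower (8.14%) in CWR22Rv1. The 2 higher in C4-2B MDVR were SNHG25 and SNHG28 with each inhibitor, which are among the lowest hosts. SNHG28 counts under both of its identifiers among the hosts higher with VER in CWR22Rv1, at 1.2-fold and at 2-fold. In these counts the few hosts listed at 0 in a library (2 in APO and 3 in VER for C4-2B MDVR, and 1 in each for CWR22Rv1) enter through the added 0.1, and no fold is given for them below.

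**Figure D3:**
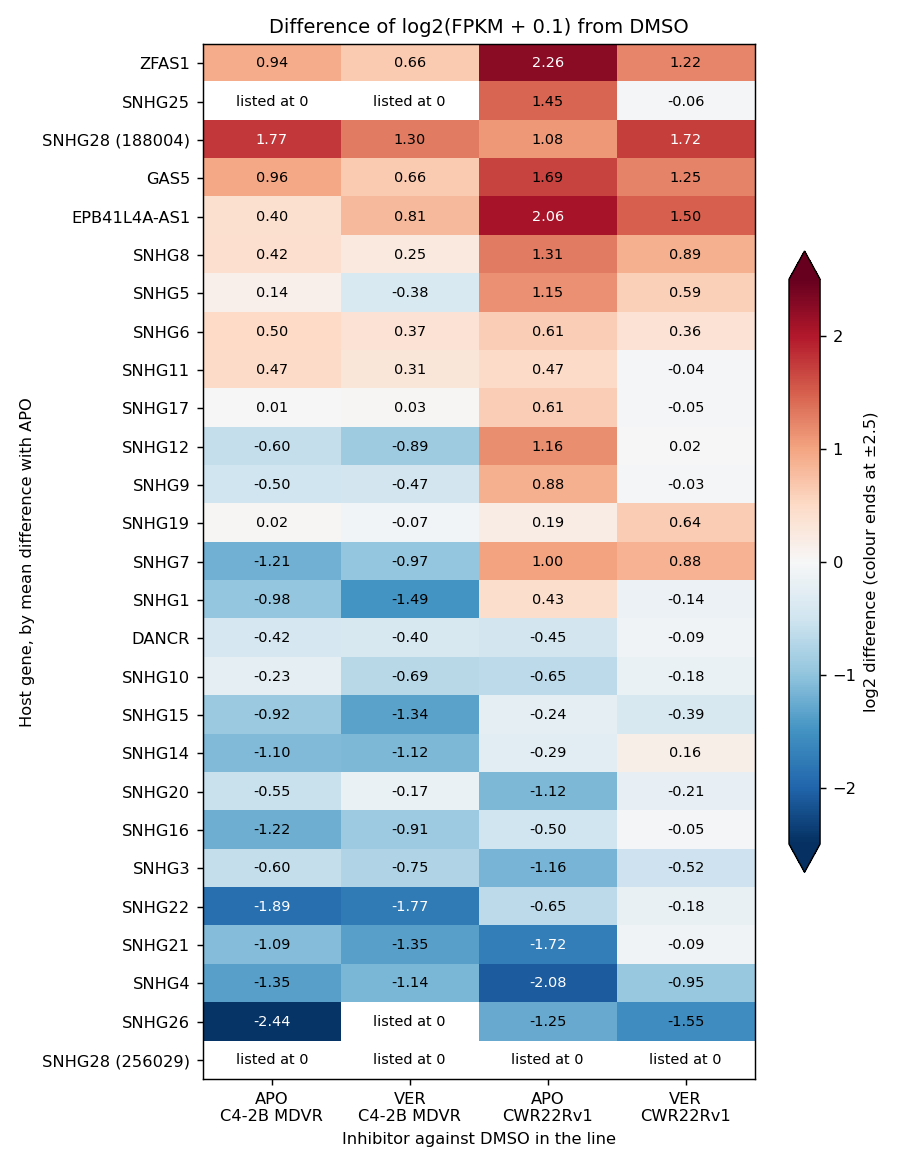
Difference of log2(FPKM + 0.1) from DMSO for the 27 host genes (rows, ordered by their mean difference with APO) in 4 comparisons, 1 library against 1. Red is higher and blue is lower than DMSO, and white cells mark a gene listed at 0 in a library of the pair. ZFAS1, GAS5 and EPB41L4A-AS1 are red in all 4 columns, and SNHG3 and SNHG4 are blue in all 4.

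The hosts that rose in both lines were led by GAS5, ZFAS1 and EPB41L4A-AS1. GAS5 (growth arrest specific 5, ENSG00000234741, minus strand of chromosome 1, 173863900 to 173868882 in GRCh38) is the classic host that accumulates when translation or growth stops. It stood at 294, 571 and 464 FPKM under DMSO, APO and VER in C4-2B MDVR, the order kept for every gene below, and at 446, 1443 and 1059 FPKM in CWR22Rv1. Every inhibitor library was above its vehicle library, by log2 differences of 0.96 and 0.66 in the first line and 1.69 and 1.25 in the second. GAS5 also gave the largest rise in FPKM of any host in each of these comparisons.

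ZFAS1 (chromosome 20, 49278178 to 49295738, plus strand) starts beside ZNFX1 on the opposite strand and hosts SNORD12 family snoRNAs. Its FPKM were 82.5, 158 and 131 in C4-2B MDVR, and 60.2, 288 and 140 in CWR22Rv1. The log2 differences were 0.94 and 0.66 in the first line and 2.26 and 1.22 in the second, and APO in CWR22Rv1 was its highest library. EPB41L4A-AS1 (chromosome 5, 112160526 to 112164276, plus strand), host of SNORA13, stood at 14.0, 18.5 and 24.6 FPKM in C4-2B MDVR and at 14.8, 61.8 and 42.0 in CWR22Rv1. From nearly equal vehicle levels it rose by log2 differences of 0.40 and 0.81 in the first line and 2.06 and 1.5 in the second. The APO call in C4-2B MDVR was lost in TPM, the values rescaled to a fixed sum per library, at 0.25.

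SNHG8 and SNHG6 were also above vehicle in each line. SNHG8 (chromosome 4), host of SNORA24, stood at 165, 220 and 196 FPKM in C4-2B MDVR and 176, 437 and 328 in CWR22Rv1. Its log2 differences were 0.42 with APO and 0.25 with VER in the first line, where the latter missed the threshold, and 1.31 and 0.89 in the second. SNHG6 (chromosome 8), host of SNORD87, stood at 101, 143 and 130 FPKM in C4-2B MDVR and 119, 182 and 153 in CWR22Rv1. Each of its inhibitor libraries passed the threshold, and its 4 log2 differences were alike, between 0.36 and 0.61.

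With APO, SNHG5 and SNHG17 passed the threshold in CWR22Rv1 and missed it in C4-2B MDVR. SNHG5 (chromosome 6) went from 397 FPKM to 879 with APO and 597 with VER in CWR22Rv1, log2 differences of 1.15 and 0.59. In C4-2B MDVR it was 47.8, 52.5 and 36.7 FPKM, a difference of 0.14 with APO that missed the threshold and of -0.38 with VER that passed it. SNHG17, a host of the SNORA71 family on chromosome 20, was at 23.6, 23.7 and 24.1 FPKM in C4-2B MDVR, level within 0.03 log2 units, and at 22.6, 34.5 and 21.9 FPKM in CWR22Rv1, where it was higher with APO (0.61). SNHG11, its neighbour on the opposite strand, was at 10.5, 14.6 and 13.1 FPKM in C4-2B MDVR and 10.7, 14.9 and 10.4 in CWR22Rv1, with log2 differences of 0.47, 0.31, 0.47 and -0.04 for APO and VER in the first line and then in the second.

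The hosts that fell in both lines with APO included SNHG4, SNHG3, SNHG16 and DANCR. SNHG4 (chromosome 5, 139274102 to 139284899, plus strand), host of the H/ACA snoRNA SNORA74A, stood at 28, 10.9 and 12.6 FPKM in C4-2B MDVR, and at 17.0, 3.95 and 8.73 in CWR22Rv1. All of its inhibitor libraries were below vehicle, with log2 differences of -1.35, -1.14, -2.08 and -0.95. SNHG3 (chromosome 1, 28505980 to 28510892, plus strand), host of SNORA73A and SNORA73B, stood at 60.3, 39.9 and 35.8 FPKM and at 24.1, 10.7 and 16.8, with log2 differences of -0.60, -0.75, -1.16 and -0.52. Both genes share strand and bases with a protein-coding neighbour, described below.

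SNHG16 and DANCR fell with each inhibitor in C4-2B MDVR and with APO in CWR22Rv1. SNHG16 (chromosome 17), host of the SNORD1 family, stood at 128, 55.0 and 68.3 FPKM in C4-2B MDVR (-1.22 and -0.91), and at 56.5, 39.9 and 54.6 in CWR22Rv1 (-0.50 and -0.05). With VER in CWR22Rv1 it was thus at its vehicle level. DANCR (chromosome 4), host of SNORA26 and named for its block on differentiation in progenitor cells, stood at 183, 136 and 138 FPKM in C4-2B MDVR and 71.3, 52.0 and 67.2 in CWR22Rv1. Its log2 differences were -0.42, -0.40, -0.45 and -0.09.

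SNHG14 and SNHG15 also fell with each inhibitor in C4-2B MDVR. SNHG14 is the long paternally expressed transcript of the Prader-Willi region on chromosome 15 that runs antisense to UBE3A, and 84 of the snoRNA genes counted below lie inside it. It stood at 46.5, 21.6 and 21.4 FPKM in C4-2B MDVR (-1.10 and -1.12) and at 23.7, 19.3 and 26.4 in CWR22Rv1 (-0.29 and 0.16), and its APO call in CWR22Rv1 was lost in TPM, at -0.17. SNHG15 (chromosome 7), host of SNORA9, stood at 34.0, 17.9 and 13.4 FPKM in C4-2B MDVR (-0.92 and -1.34) and at 49.8, 42.0 and 37.9 in CWR22Rv1 (-0.24 and -0.39). In CWR22Rv1 the VER library of SNHG15 was past the threshold and its APO library was not.

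The 4 scaRNA hosts lay below vehicle in every inhibitor library. SNHG22 (SCARNA17) stood at 34.1, 9.11 and 9.91 FPKM in C4-2B MDVR and 6.33, 4.0 and 5.58 in CWR22Rv1. SNHG21 (SCARNA15) stood at 9.64, 4.49 and 3.72, and at 5.29, 1.53 and 4.97. SNHG10 (SCARNA13) stood at 25.4, 21.7 and 15.7, and at 10.5, 6.62 and 9.26. Of these, SNHG22 showed the deepest fall in C4-2B MDVR, by log2 differences of -1.89 and -1.77, and SNHG21 the deepest in CWR22Rv1 with APO, at -1.72. SNHG20 (SCARNA16) stood at 8.18, 5.55 and 7.23 FPKM and at 9.68, 4.39 and 8.38, with log2 differences of -0.55, -0.17, -1.12 and -0.21. Past the threshold, 3 of the 4 fell in C4-2B MDVR under APO (31.2% of all genes) and likewise 3 under VER (30.9% of all genes). In CWR22Rv1 4 fell under APO (36.6% of all genes) and 0 under VER (30.2% of all genes, and 1 host in TPM, SNHG20 at -0.27).

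In 4 hosts APO went with opposite directions in the lines, and all 4 were higher in CWR22Rv1. Over all genes 4.42% had this pattern. SNHG7 (chromosome 9), host of SNORA17 snoRNAs, stood at 8.83, 3.77 and 4.45 FPKM in C4-2B MDVR (-1.21 and -0.97) and at 38.2, 76.4 and 70.3 in CWR22Rv1 (1.0 and 0.88). SNHG12 (chromosome 1), which holds both H/ACA and C/D snoRNAs, stood at 25, 16.5 and 13.5 FPKM (-0.60 and -0.89) and at 28.9, 64.6 and 29.3 (1.16 and 0.02). SNHG12 thus started level in the lines, and its APO library was below vehicle in C4-2B MDVR and the highest of all 6 in CWR22Rv1.

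SNHG1 and SNHG9 completed this group. SNHG1 (chromosome 11, 62851988 to 62855914, minus strand), host of SNORD22 and SNORD25 to SNORD31, stood at 121, 61.6 and 43.1 FPKM in C4-2B MDVR (-0.98 and -1.49) and at 131, 178 and 119 in CWR22Rv1 (0.43 and -0.14). SNHG9 (chromosome 16), host of SNORA78, stood at 89.3, 63.1 and 64.6 FPKM (-0.50 and -0.47) and at 18.4, 33.9 and 18 (0.88 and -0.03). For VER the same pattern was found in 2 hosts, SNHG5 and SNHG7, and in 4.98% of all genes, and 0 hosts had the reverse pattern with either inhibitor (7.04% of all genes with APO and 5.18% with VER).

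**Figure D4:**
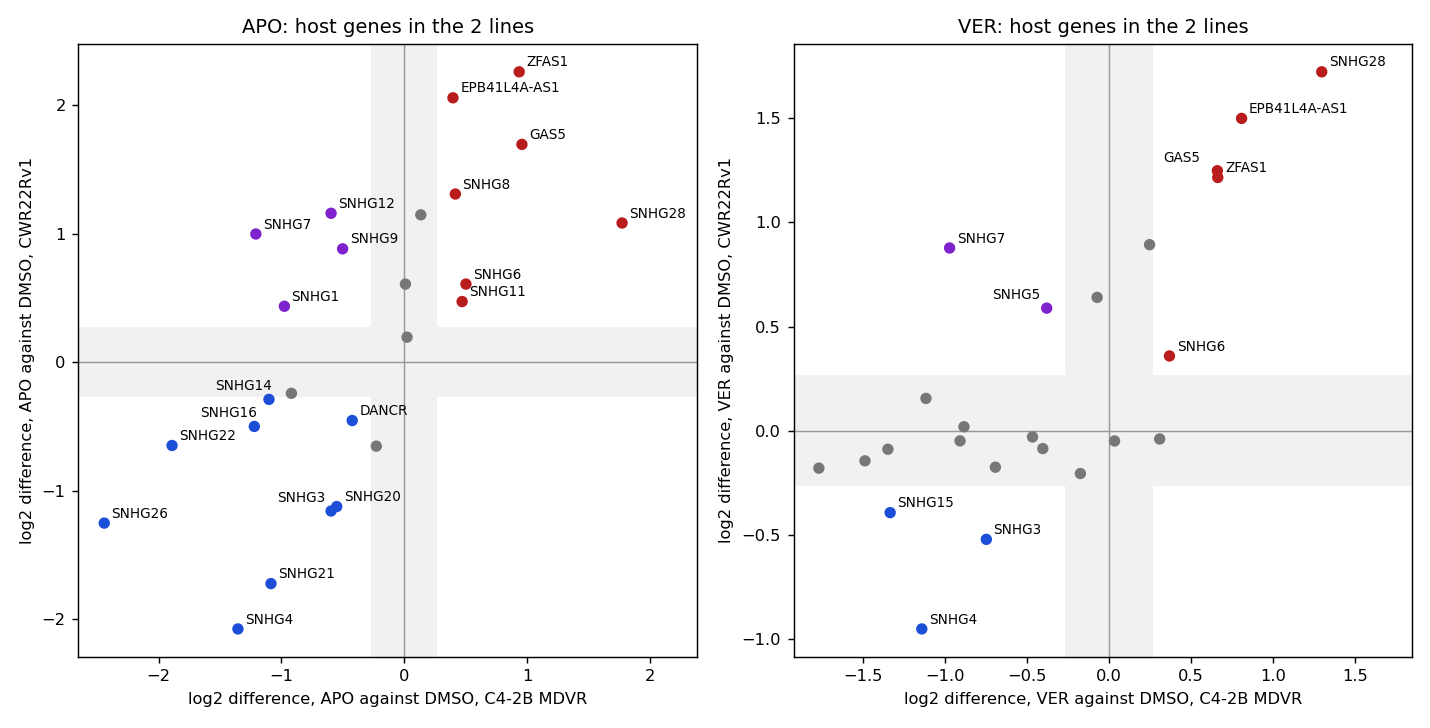
Difference of log2(FPKM + 0.1) from DMSO in C4-2B MDVR (horizontal) and CWR22Rv1 (vertical), APO on the left and VER on the right, 1 point per host gene that was not listed at 0 in those libraries. Red genes were higher in both lines, blue lower in both, purple higher in CWR22Rv1 and lower in C4-2B MDVR, and the grey band holds differences under 1.2-fold. No point lies in the lower right corner.

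Between the lines, which share no library, 8 hosts were higher with APO in both (17.3% of all genes) and 9 lower in both (17.5%). With VER 5 were higher in both (14.6%) and 4 lower in both (14.7%). The log2 difference was larger, in the signed sense, in CWR22Rv1 than in C4-2B MDVR for 17 of 27 hosts with APO (47.6% of all genes) and for 22 of 27 with VER (48.9% of all genes). Whether these line differences exceed the spread between cultures could not be tested with 1 library each.

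SNHG19 stood apart from the other highly expressed hosts. This short gene on chromosome 16, host of SNORD60, was at 215, 218 and 204 FPKM in C4-2B MDVR, level within 0.07 log2 units of vehicle. In CWR22Rv1 it was at 74.8, 85.6 and 117 FPKM, and it was higher with VER (0.64) but under the threshold with APO (0.19).

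The lowest hosts were SNHG25, SNHG26 and SNHG28. SNHG25 was listed at 0 in the vehicle library of C4-2B MDVR and at 1.41 and 2.24 FPKM in its APO and VER libraries, and stood at 1.72, 4.86 and 1.65 FPKM in CWR22Rv1. SNHG26 stood at 2.04 and 0.294 FPKM with DMSO and APO and was listed at 0 with VER in C4-2B MDVR, and stood at 7.62, 3.14 and 2.53 FPKM in CWR22Rv1 (-1.25 and -1.55). SNHG28 under its shorter identifier was at 0.0559, 0.433 and 0.283 FPKM, and at 0.144, 0.417 and 0.706. Under its longer identifier SNHG28 was listed at 0 in all libraries but VER in CWR22Rv1 (0.846 FPKM), and reads can be split between these overlapping entries. SNHG25 spans only 278 exonic bases, and FPKM of so short a gene rest on few fragments.

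The inhibitors were compared directly within each line. In C4-2B MDVR 4 hosts were higher with VER than with APO (25.4% of all genes) and 10 lower (29.2% of all genes), with a median of -0.13, and in TPM the split turned to 7 higher and 6 lower. In CWR22Rv1 12 were higher (34.9% of all genes, with SNHG28 under both identifiers) and 12 lower (32.3% of all genes), with a median of -0.15. At more than 2-fold these counts were 0 (7.38%) and 1 (8.89%) in C4-2B MDVR and 3 (14.3%) and 3 (9.63%) in CWR22Rv1. In CWR22Rv1 the hosts lower with VER than with APO included ZFAS1 (-1.04), SNHG12 (-1.14), SNHG9 (-0.91), SNHG17 (-0.66), EPB41L4A-AS1 (-0.56) and GAS5 (-0.45). Higher with VER were SNHG21 (1.63), SNHG4 (1.12), SNHG20 (0.92) and SNHG3 (0.64) among others. Among hosts with a mean over 10 FPKM, the inhibitors lay closer in C4-2B MDVR than in CWR22Rv1. The differences ran from -0.52 for SNHG5 to 0.41 for EPB41L4A-AS1 in C4-2B MDVR. In CWR22Rv1 they ran from -1.14 for SNHG12 to 1.12 for SNHG4. These values share their APO library with the comparison of APO against DMSO. Both compounds were used at 10 μM, and equal dose does not mean equal inhibition of HSP70.

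Grouped by the snoRNA genes inside them, the 8 hosts of C/D snoRNAs alone had median log2 differences of -0.48 (APO) and -0.64 (VER) in C4-2B MDVR and of 0.31 and 0.26 in CWR22Rv1. The 10 hosts of H/ACA snoRNAs alone had medians of -0.46, -0.44, 0.54 and -0.04, and the 4 scaRNA hosts had -0.82, -1.02, -0.89 and -0.18. The median of the scaRNA hosts was the lowest of these in each comparison. SNHG12 and SNHG25 hold both kinds, and GAS5 and SNHG28 were left out of this grouping because no snoRNA gene with a class name lay inside them in the annotation used here. GAS5 (0.96, 0.66, 1.69 and 1.25) lay above each median given here, so a class that counted it would have a higher median.

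The snoRNAs themselves could hardly be read from these libraries, which were made from polyadenylated RNA. Of 136 snoRNA and scaRNA genes inside the expressed hosts, 4 were listed above 0 and 3 above 0.1 FPKM in any library. SNORA73B, an H/ACA snoRNA in SNHG3 that takes part in cutting of the ribosomal RNA precursor, was the highest and is shown in full, with its ACA box in capitals 3 bases before the 3′ end.
SNORA73B, GRCh38, chr1:28508559-28508762, plus strand: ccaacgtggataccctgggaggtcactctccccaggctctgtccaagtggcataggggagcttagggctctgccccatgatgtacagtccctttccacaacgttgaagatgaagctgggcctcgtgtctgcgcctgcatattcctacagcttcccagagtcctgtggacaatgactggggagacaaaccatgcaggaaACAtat
SNORA73B was listed at 96.6, 12.7 and 41.2 FPKM in C4-2B MDVR and at 16.2, 0 and 0 in CWR22Rv1. SCARNA13 in SNHG10 was listed at 2.08, 1.54 and 0 FPKM and at 7.33, 8.38 and 3.43, and SNORA71B in SNHG17 at 2.70, 3.98 and 6.40 and at 4.87, 0 and 0. Genes this short give FPKM that rest on very few fragments, and 16 of 989 snoRNA and scaRNA genes in the tables were listed above 0.

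The nearest protein-coding genes did not always move with the hosts. SLC3A2, the heavy chain of the cystine and leucine transporters, starts 188 bases from SNHG1 on the opposite strand. It stood at 126, 1251 and 490 FPKM in C4-2B MDVR and 261, 1496 and 582 in CWR22Rv1, log2 differences of 3.31, 1.96, 2.52 and 1.16. SNHG1 had values of -0.98, -1.49, 0.43 and -0.14 in the same comparisons, so SLC3A2 rose in each, while SNHG1 fell with each inhibitor in C4-2B MDVR and rose in CWR22Rv1 with APO only.

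SNHG3 and SNHG4 lay below vehicle together with the protein-coding gene that overlaps each on the same strand, and SNHG14 and SNHG20 did not share such a pattern with theirs. RCC1, the nucleotide exchange factor of the GTPase Ran, overlaps SNHG3 and stood at 60.9, 23.8 and 19.6 FPKM and at 54.8, 33.9 and 23.5 (-1.35, -1.63, -0.69 and -1.22). MATR3, a nuclear matrix protein gene that overlaps SNHG4, stood at 29.4, 15.9 and 17.0 FPKM and at 23.9, 11 and 11.8 (-0.88, -0.79, -1.11 and -1.01). SNRPN, which overlaps SNHG14, had log2 differences of 0.55, 0.13, 0.75 and -0.06, against -1.10, -1.12, -0.29 and 0.16 for the host. SEC14L1, which overlaps SNHG20, had 0.11, -0.17, -0.19 and -0.98, against -0.55, -0.17, -1.12 and -0.21. Reads in the shared exons can be counted to either gene of such a pair, so the values of SNHG3, SNHG4, SNHG14 and SNHG20 are uncertain. The labels name a library kit that marks strand, the methods of the study name another kit, and neither source says whether strand was used in counting, so reads of hosts and their opposite-strand neighbours may not have been told apart either.

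ZNFX1 beside ZFAS1 had log2 differences of -0.32, 0.28, -0.26 and -0.12, ZBTB37 beside GAS5 of -0.17, 0.16, 0.12 and 0.50, and RPS2 beside SNHG9 of 0.19, -0.09, 0.44 and -0.16. Here the host moved further from vehicle than its neighbour in all 4 comparisons for ZFAS1 and GAS5.

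Other genes with a snoRNA gene inside them served as comparison, and the shares of all genes are given with the second set. SNHG29 to SNHG32, genes outside the rule that are given further below, are within these sets. The first set was 32 other non-coding genes above the filter, of which 17 reached a mean of 1 FPKM. In C4-2B MDVR 34.4% were higher and 37.5% lower with APO, and 43.8% and 37.5% with VER (medians 0.00 and 0.00). In CWR22Rv1 these were 34.4% and 37.5% with APO (median -0.0007) and 46.9% and 9.4% with VER (median 0.20). The 250 protein-coding hosts above the filter had 34.0% higher and 38.8% lower with APO in C4-2B MDVR (33.6% and 31.2% of all genes), with a median of -0.03. With VER there they had 23.6% higher and 39.2% lower (31.6% and 30.9% of all genes, median -0.13). In CWR22Rv1 they had 39.6% higher and 32.0% lower with APO (33.3% and 36.6% of all genes, median 0.05) and 26.0% and 32.4% with VER (30.1% and 30.2% of all genes, median 0.00). Their medians lay nearer to 0 than those of the 27 host genes with APO in both lines. The heat shock genes HSPA8 and HSPA9 are among them, and the former, which encodes the constitutive HSP70, stood at 1332, 1399 and 719 FPKM in C4-2B MDVR and 713, 545 and 1210 in CWR22Rv1 (log2 differences of 0.07, -0.89, -0.39 and 0.76). HSPA9, the mitochondrial member, stood at 121, 249 and 145 FPKM and at 151, 355 and 151, and was more than 2-fold higher with APO in each line.

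Of 18 genes of snoRNA particles and their assembly, 2 (11.1%) were higher and 10 (55.6%) lower with APO in C4-2B MDVR, beside 33.6% and 31.2% of all genes, with a median of -0.32. With VER there, 0 were higher and 11 (61.1%) lower, beside 31.6% and 30.9% of all genes (median -0.49). In CWR22Rv1 VER gave the same 0 and 11 (61.1%), beside 30.1% and 30.2% of all genes (median -0.43). With APO in CWR22Rv1, 3 (16.7%) were higher and 4 (22.2%) lower, both shares under the 33.3% and 36.6% of all genes (median -0.15), and in TPM the split turned to 3 and 2. NOP56, a core protein of C/D particles, stood at 182, 59.6 and 61.1 FPKM in C4-2B MDVR and 231, 74.6 and 108 in CWR22Rv1, log2 differences of -1.61, -1.58, -1.63 and -1.09. Its partner NOP58 had -1.24, -0.95, -0.70 and -0.76. Both are themselves protein-coding snoRNA hosts. In the other direction, RPAP3 of the R2TP assembly complex (0.29 and 0.69) and the H/ACA protein NOP10 (0.43 and 0.35) were higher with APO in C4-2B MDVR and CWR22Rv1, and RPAP3 lost its call in C4-2B MDVR in TPM, at 0.14.

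Factors of nonsense-mediated decay, the pathway that removes many spliced host RNAs, were the other list. In C4-2B MDVR, 1 of 18 (5.56%) was higher and 12 (66.7%) lower with APO, beside 33.6% and 31.2% of all genes (median -0.34), and 2 (11.1%) were higher and 10 (55.6%) lower with VER, beside 31.6% and 30.9% (median -0.30). In CWR22Rv1, 4 (22.2%) were higher and 5 (27.8%) lower with APO, both under the 33.3% and 36.6% of all genes (median 0.09), and in TPM the split turned to 7 and 4. With VER there, 2 (11.1%) were higher and 6 (33.3%) lower, beside 30.1% and 30.2% of all genes (median -0.16). The helicase UPF1 had log2 differences of -0.82, -0.33, -0.84 and -0.42 and SMG9, a regulator of the kinase SMG1, of -0.31, -0.52, -0.87 and -0.65. NBAS, which also serves Golgi traffic, was higher with APO in both lines (0.56 and 0.46). The list median had another sign in CWR22Rv1 with APO than in the other 3 comparisons.

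**Figure D5:**
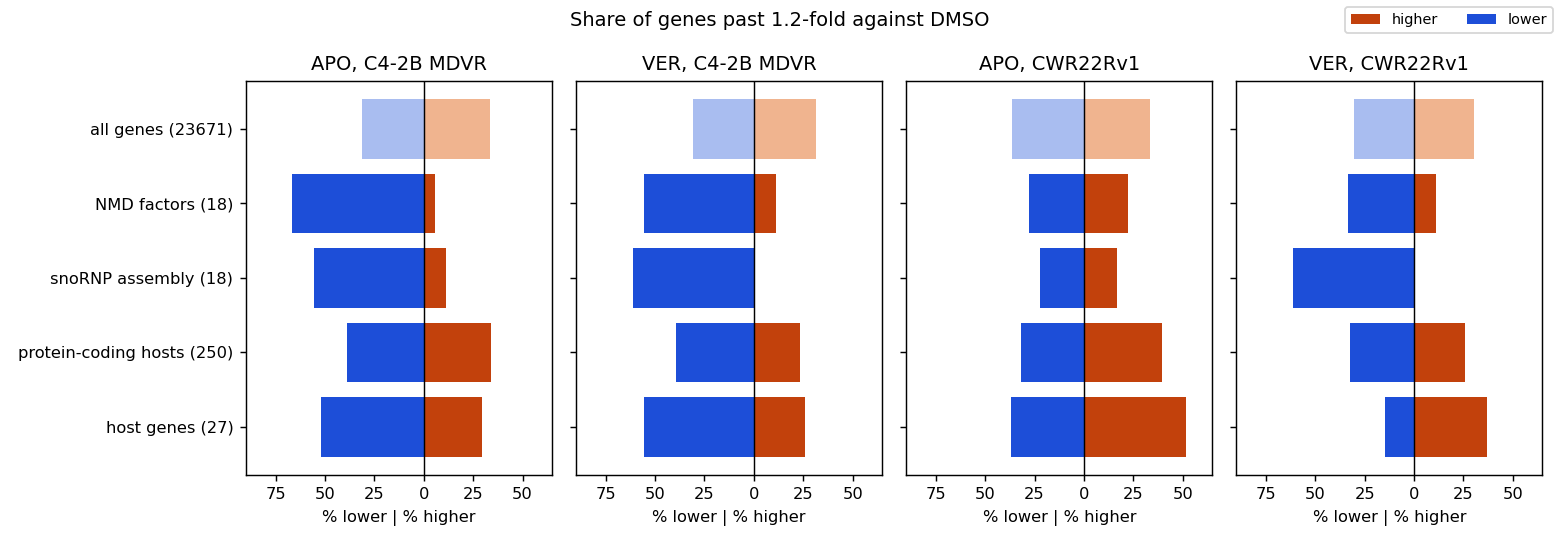
Share of genes past 1.2-fold against DMSO in 4 comparisons, lower to the left and higher to the right, for the 27 host genes, 250 protein-coding hosts, 18 genes of snoRNA particles and their assembly, 18 factors of nonsense-mediated decay (NMD) and all 23671 genes (pale bars). Past this fold the host genes lean to lower in C4-2B MDVR and to higher in CWR22Rv1, where their median log2 difference with VER was -0.04.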

How the data were processed

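RNA from 6 libraries, 1 for each of 2 cell lines and 3 treatments, was sequenced as paired reads of polyadenylated RNA. The authors deposited FPKM per Ensembl gene, 1 table per library. The submitters' processing notes name HISAT, Cufflinks, Cuffnorm and the build GRCh38, and the annotation release is not given in the sources used here. Gene symbols and coordinates were taken from GENCODE 29, which named 57047 of 60658 identifiers. Start sequences came from RefSeq GRCh38.p14.

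Genes above 0.1 FPKM in at least 1 library (23671) were kept. Differences are of log2(FPKM + 0.1), 1 library against 1, called past 1.2-fold, the fold the study used to count changed genes. With 1 library per condition there are no p-values. Hosts with a mean of at least 1 FPKM are described by name, and from each gene list the genes with the highest and lowest mean difference. The code that makes the calls was checked on a copy of a library without noise in which chosen genes were changed beyond the threshold. Such a check does not show how reliable a call between real libraries is. Alternatives were other pseudocounts (0.01 and 1), no filter, median-ratio scaling, TPM (FPKM rescaled to a fixed sum per library) and a 2-fold threshold. The hosts and gene lists were chosen with earlier results of these data known. Calculations ran in Python 3.11.15 with numpy 2.4.6, pandas 2.3.3 and scipy 1.17.1, and plots in matplotlib 3.10.9.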

Additional observations from a re-analysis of the deposited data

Results flagged for a closer look

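A small number of host genes stood on opposite sides of vehicle in the lines, past 1.2-fold in each, and the difference between the lines was not tested because each value rests on 1 library against 1. With APO, the log2 differences were -0.98 in C4-2B MDVR and 0.43 in CWR22Rv1 for SNHG1, -0.60 and 1.16 for SNHG12, -1.21 and 1.0 for SNHG7, and -0.50 and 0.88 for SNHG9. With VER they were -0.38 and 0.59 for SNHG5 and -0.97 and 0.88 for SNHG7.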

How the results depend on the processing

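No paired analysis was possible because there was 1 library per condition and the labels carry no replicate numbers, and no library could be left out. No called difference of a host turned to the other side of 0 under these alternatives. With TPM the median log2 difference of the hosts moved to -0.57 (APO, C4-2B MDVR), 0.55 (APO, CWR22Rv1), and for VER against APO to 0.00 in C4-2B MDVR, where 7 hosts were higher and 6 lower, and to -0.33 in CWR22Rv1. TPM itself moved the median of genes whose mean reached 1 FPKM by -0.12, 0.11, 0.13 and -0.18 in these comparisons. A pseudocount of 1 gave a median of 0.31 for APO in CWR22Rv1, no filter gave -0.23 and 0.19 for APO in C4-2B MDVR and CWR22Rv1, and median-ratio scaling gave -0.14 for the lines under DMSO. At 2-fold the higher and lower counts were 2 and 7 (APO) and 2 and 7 (VER) in C4-2B MDVR, 8 and 5 (APO) and 5 and 1 (VER) in CWR22Rv1, 7 and 4 between the lines, and 0 and 1 in C4-2B MDVR and 3 and 3 in CWR22Rv1 for VER against APO. The other alternatives were chosen after seeing the data: adding the 4 genes with a newer SNHG symbol gave a median of -0.23 for APO in C4-2B MDVR, and leaving out SNHG25, SNHG26 and SNHG28 left 4 hosts lower in C4-2B MDVR than in CWR22Rv1. Of 226 calls of single genes over all comparisons, 214 were kept in TPM, 223 with median-ratio scaling, 221 with a pseudocount of 1, 226 with 0.01 and 84 at 2-fold, and TPM added 13 calls and median-ratio scaling 9. Against DMSO, the hosts that gained a call were SNHG10 with APO in C4-2B MDVR (-0.38), SNHG19 with APO in CWR22Rv1 (0.31) and SNHG20 with VER in CWR22Rv1 (-0.27) in TPM, and SNHG8 with VER in C4-2B MDVR (0.28) and SNHG15 with APO in CWR22Rv1 (-0.28) with median-ratio scaling. Without counts, the precision of low hosts could not be given.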

Other observations

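Genes outside the rule now carry SNHG symbols, and the 4 of them in the tables were not counted above. SNHG29, listed as LRRC75A-AS1 and host of SNORD49 snoRNAs, stood at 667, 1137 and 1009 FPKM under DMSO, APO and VER in C4-2B MDVR and at 746, 1317 and 1125 in CWR22Rv1. It was thus above GAS5, the highest host of the rule, in every library but CWR22Rv1 with APO. The log2 differences of SNHG29 were 0.77, 0.60, 0.82 and 0.59, nearly the same in both lines. SNHG32, listed as C6orf48 and host of SNORD48 and SNORD52, stood at 120, 255 and 220 FPKM and at 145, 449 and 314, with log2 differences of 1.09, 0.88, 1.64 and 1.12. Both genes were higher with each inhibitor in each line.

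SNHG30, listed as LINC02001, stood at 20.9, 17.1 and 16.0 FPKM in C4-2B MDVR (-0.28 and -0.38) and was level in CWR22Rv1, at 6.74, 6.75 and 6.87. SNHG31, listed as AC016708.1, was low, at 0.896, 1.34 and 1.82 FPKM in C4-2B MDVR and 0.251, 0.0325 and 0 in CWR22Rv1.

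Among protein-coding hosts, NCAPD2, a condensin subunit gene that holds SCARNA10, had log2 differences of -1.31 (APO) and -2.22 (VER) in C4-2B MDVR and of -1.07 and -1.11 in CWR22Rv1. OSCP1 (1.60, 1.30, 1.33 and 0.84) and SLC4A10 (1.92, 1.19, 2.09 and 0.69), a sodium bicarbonate transporter gene, were higher in each. SLC4A10 was low, at 0.0759, 0.565 and 0.302 FPKM under DMSO, APO and VER in C4-2B MDVR and at 0.818, 3.81 and 1.38 in CWR22Rv1. Its vehicle value in C4-2B MDVR was under 0.1 FPKM, so its log2 differences there depend on the added 0.1.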
